A study of Mus musculus with 6 samples.

Results

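Solute carriers are membrane proteins that move nutrients, ions, metals and metabolites across the cell surface and the membranes of organelles. The members described here are 86 genes of this superfamily, out of 239 solute carrier genes measured and 12393 genes in all. They were taken by symbol (Slc, a family number, the letter a and a member number) from array probe sets annotated with a single gene. Slc2a1, Slc2a3, Slc16a1, Slc16a3, Slc4a1 and Slc40a1 were left out by the rule. A gene with several probe sets was read from the brightest on average, and it was kept if that probe set exceeded a level of 6 log2 units on any array. That level is therefore what chose the members. The remaining 153 measured solute carrier genes did not exceed it. Just inside lay Slc22a18, Slc7a3, Slc43a3, Slc39a11 and Slc39a4 with highest values of 6.10 to 6.22, and just outside Slc2a8, Slc25a48, Slc31a2, Slc14a2 and Slc29a1 with 6.00 to 5.93. Slc9a3r1 met the symbol rule but encodes a scaffold protein that binds transporters and does not itself transport.

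The cells were CD4-CD8- double-negative (DN) cells of C57BL/6 mice, the stage that holds the earliest T-cell precursors. Thymus lobes taken on gestation day 15 spent 6 days in organ culture, in medium renewed every 2 days. The medium held 10 nM of the dioxin TCDD, a ligand of the aryl hydrocarbon receptor (AHR), or the solvent dioxane alone. DN cells were pooled from inside the lobes (thymocytes) or from buffer flushed off them (emigrants), and each pool went on 1 array. The labels give a purity of more than 95% for the sorted cells. There were 1 thymocyte array with TCDD, 2 emigrant arrays with TCDD, 1 thymocyte array with dioxane and 2 emigrant arrays with dioxane. The labels number the emigrant arrays 1 and 2, and give 0.1% dioxane by volume for the thymocyte sample alone. No label states whether each array had its own culture, so a p-value here covers the spread of these arrays alone, and that spread may be technical. The number of arrays limits the precision.

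In T-cell precursors, solute carriers set how much amino acid, sugar, metal and nucleotide precursor a growing cell can take up. The carrier Slc7a5 pairs with the heavy chain Slc3a2 to bring in large neutral amino acids, and activated T cells depend on it. The Slc39 family brings zinc into the cytosol and the Slc30 family takes it out. The Slc25 family exchanges metabolites across the inner mitochondrial membrane, and the Slc35 family carries nucleotide sugars into the Golgi. AHR bound by TCDD moves to the nucleus and acts at DNA sites with the core letters GCGTG.

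The 7 listed AHR targets had median TCDD minus dioxane differences of 3.62 (thymocytes), 0.25 (emigrants numbered 1) and 2.14 (emigrants numbered 2), and no gene passed the test across all genes. In emigrants numbered 1 Scin (1.85), Cyp1b1 (1.24), Xdh (0.94) and Cyp1a1 (0.25) were higher, while Tiparp (-0.01), Ahrr (-0.42) and Nqo1 (-0.76) were not higher. Cyp1a1 read 4.22 with TCDD and 3.96 with dioxane there, under the highest bacterial control of each array (4.92 and 4.32). It thus cannot be told from background, and the Ahrr value with TCDD there (4.04) also lay under the control. Emigrant arrays numbered 1 stood apart: of the 9 measured erythroid markers the median was 6.60 with TCDD and 6.53 with dioxane there, and 4.24 to 4.53 on the other 4 arrays. Neutrophil markers (12 of 12 measured) had medians of 9.85 and 8.24 on the arrays numbered 1 and 4.87 to 6.72 elsewhere. The summed linear signal of 12 macrophage and dendritic markers ran from 2071 to 18340.2 on TCDD arrays and from 1304 to 15707 on dioxane arrays, and 11 of the 12 read higher with TCDD. For the 13 DN2 and DN3 T-lineage markers the sums were 1050.0 to 5309.5 and 1250 to 11513, and 2 of 13 read higher. Stroma and endothelium markers read higher with TCDD in 9 of 9 fits, with pair medians of -0.05, 0.34 and 1.59 (thymocytes, emigrants numbered 1, emigrants numbered 2), and neutrophil markers in 12 of 12, with -0.00219, 0.94 and 1.02. Cd8b1, Itgam and the endothelial markers Pecam1 and Cdh5 lay under the highest bacterial control of the array (4.32 to 4.92) everywhere. Pecam1 and Cdh5, counted among the 9 stroma and endothelium markers, thus cannot be told from background. For actin the 3' probe set exceeded the 5' one, a gap that widens as RNA degrades, by 4.15, 3.77 and 3.36 log2 units on TCDD arrays and 3.48, 3.06 and 3.01 on dioxane arrays (thymocytes, emigrants numbered 1, emigrants numbered 2). For Gapdh the same gap was 5.86, 5.60 and 4.75 on TCDD arrays and 6.10, 4.75 and 4.69 on dioxane arrays, so it was smaller with TCDD in thymocytes.

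Levels of the members spread widely over substrate classes. Of the 86, 44 exceeded 6 on all 6 arrays, 60 had a mean above 6 and 8 passed through 1 array alone, 5 of them through the dioxane emigrant array numbered 1. The level was passed on arrays of both treatments by 73 members, on TCDD arrays only by 5 and on dioxane arrays only by 8. The brightest probe sets were those of mitochondrial carriers. Slc25a5, an ADP/ATP exchanger, read 11.07 to 11.70 on the 6 arrays, and Slc25a3, the phosphate carrier, 11.25 to 11.68. Slc44a2, a choline transporter-like protein, followed at 8.85 to 10.28, Slc25a4, another ADP/ATP exchanger, at 8.68 to 10.04 and Slc25a51, which brings NAD into mitochondria, at 8.80 to 9.89. The range over the arrays was under 0.5 log2 units for 14 members and over 2 for 15. Probe sets differ in affinity, so these levels do not rank one gene's transcript against another's.

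**Figure D1:**
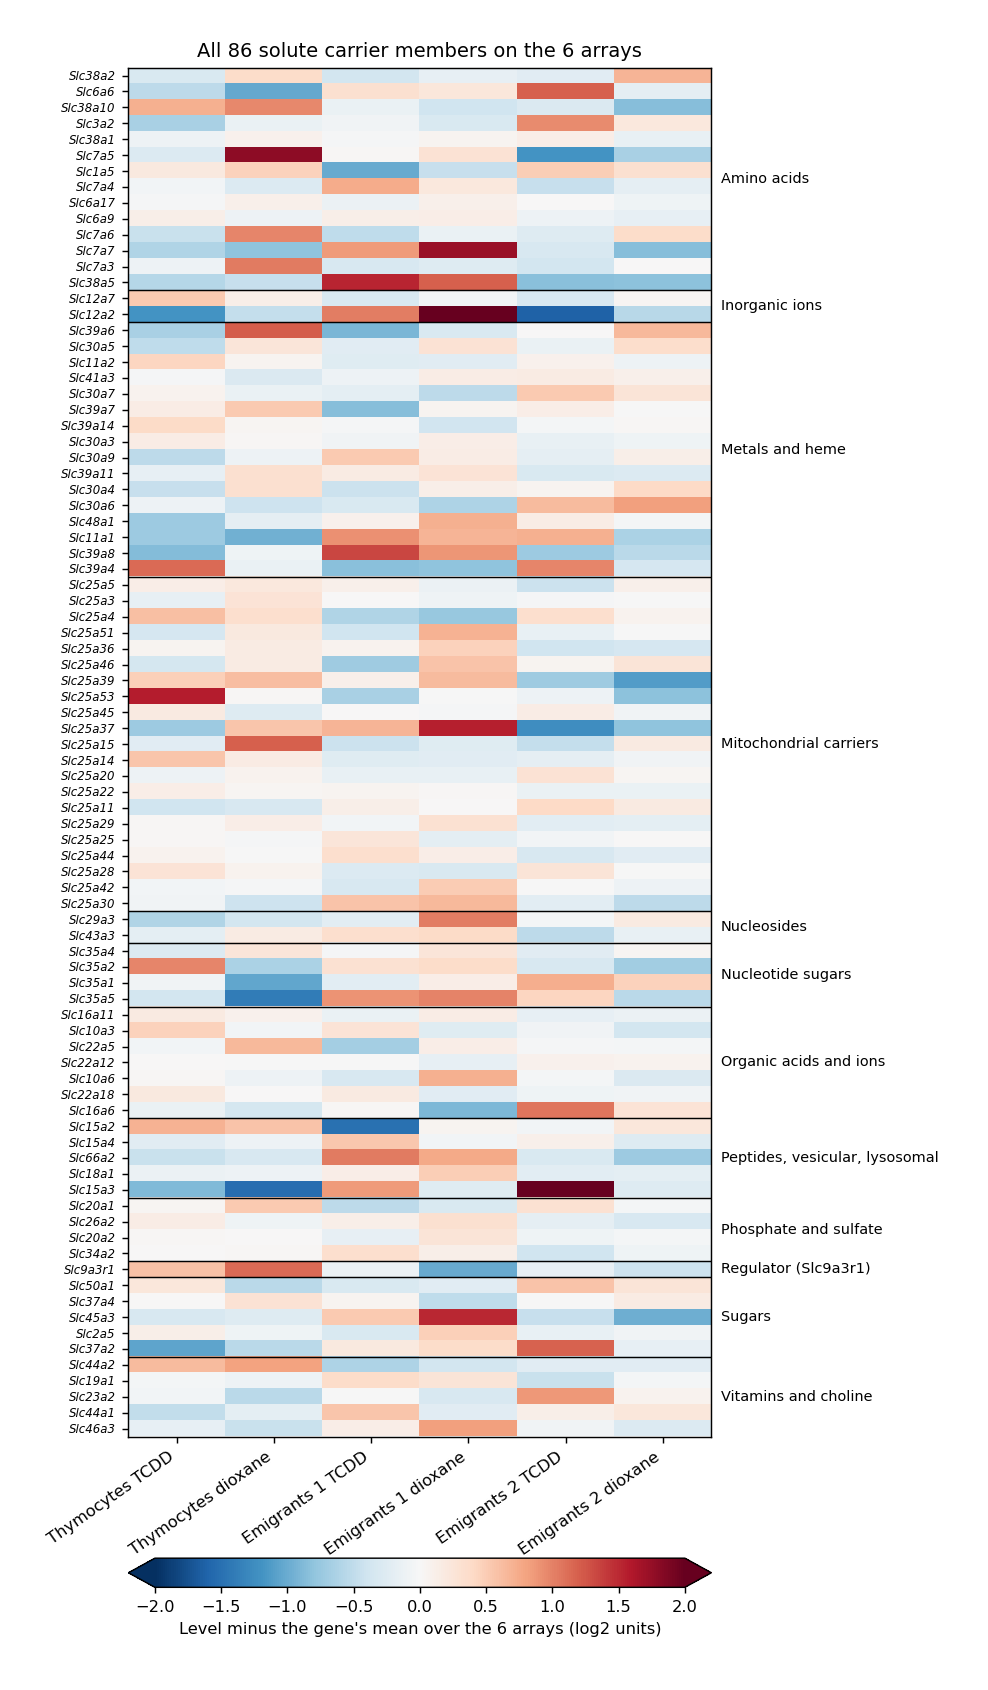
Each of the 86 members (rows, grouped by substrate class and ordered by mean level) on the 6 arrays (columns), coloured by its level minus its own mean over the arrays, in log2 units, with colours ending at 2 units. Slc12a2 on the dioxane emigrant array numbered 1 and Slc15a3 on the TCDD emigrant array numbered 2 stand out as high.

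The main question was how the transporters differed with TCDD. Over both cell sources, 42 members read higher and 44 lower with TCDD, with a median difference of -0.04 log2 units. Over all 12393 genes, 5847 read higher and 6546 lower, with a median of -0.02. limma, with cell source in the model, called 0 of the 86 members at an adjusted p under 0.05 (smallest adjusted p = 0.811). The percentage called over all genes was 0.0% (smallest adjusted p = 0.483). At an unadjusted p under 0.05 there were 2 members higher and 6 lower, against 333 (2.69%) and 326 (2.63%) of all genes. Of the 5537 genes over 6 on any array, 281 were higher and 289 lower at that limma p. Slc7a6 and Slc30a4 of the 6 exceeded 6 on dioxane arrays only, and Slc15a3 of the 2 on TCDD arrays only. Within the emigrants alone limma called 0 of 86 members, and 0 of all genes (0.0%). At an unadjusted p under 0.05 there were 1 member higher and 0 lower, against 1.24% and 0.815% of all genes. In these pooled cells, fewer cells of a type and less RNA per cell cannot be told apart.

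Member values were also set side by side in the 3 pairs of arrays that share a source and number. Where 3 values of a treatment or 3 differences follow, they stand in the order thymocytes, emigrants numbered 1, emigrants numbered 2. All 3 pairs gave a higher TCDD value for 11 members, 12.8% of them, where 15.4% of all genes did so. A lower TCDD value in all 3 pairs was found for 19 members, 22.1%, where 17.4% of all genes did so, and 19.3% of the genes over 6 on any array. Among genes over 6 the share higher in all 3 pairs was 19.2%. All 3 TCDD arrays lay under all 3 dioxane arrays for 7 members (8.14%, against 4.61% of all genes and 5.49% of those over 6), and above them for Slc25a45 alone (1.16%, against 3.47% and 4.86%). In thymocytes and emigrants numbered 2 alone, 25 members were higher in both pairs (29.1%, against 28.8% of all genes) and 27 lower (31.4%, against 32.0%). Those 7 were Slc7a6, Slc38a2, Slc30a4, Slc30a5, Slc25a46, Slc25a51 and Slc35a4. Of the 19 members lower in all 3 pairs, Slc7a6, Slc30a4, Slc7a3 and Slc18a1 exceeded 6 on dioxane arrays only. Of the 11 higher in all 3 pairs, Slc15a3 and Slc16a6 exceeded it on TCDD arrays only. All of these became members through the treatment in which they were high.

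**Figure D2:**
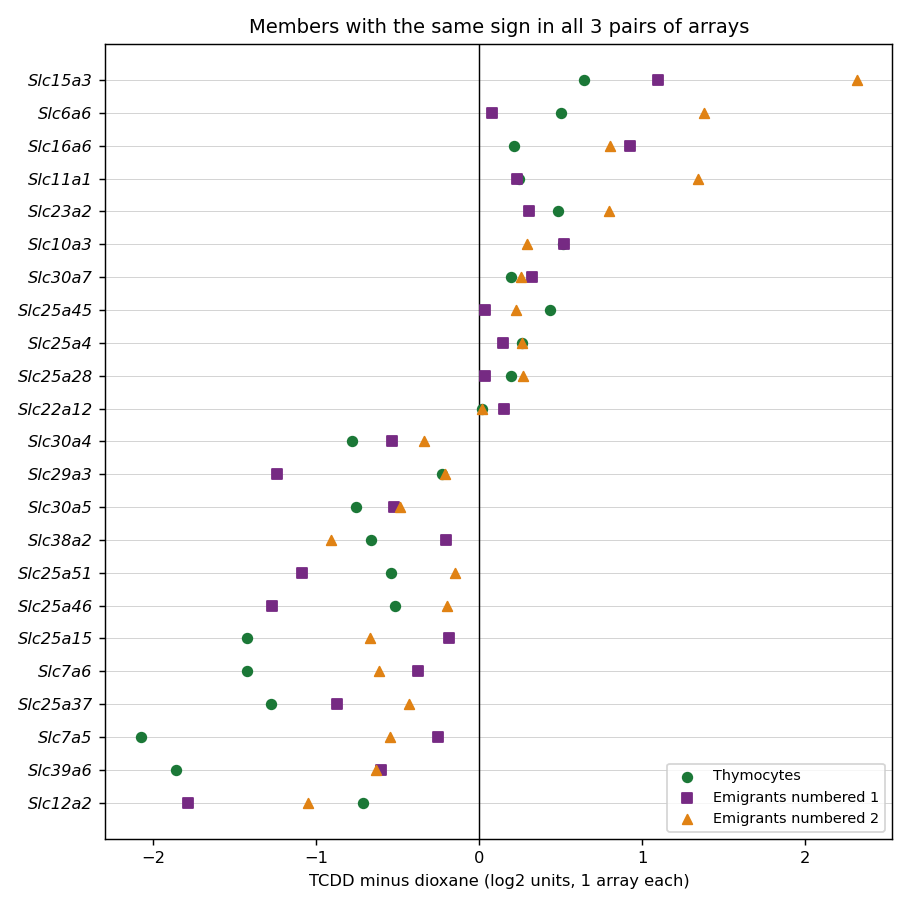
TCDD minus dioxane in log2 units (x axis) for the 11 members that read higher and the 12 of the 19 that read lower by the most in all 3 pairs of arrays (y axis), 1 point per pair. Slc15a3 reaches 2.32 in emigrants numbered 2, and Slc7a5 reaches -2.07 in thymocytes.

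Single pairs differed in which members moved furthest. In thymocytes 4 members were at least 2-fold higher (4.65%, against 2.83% of all genes) and 6 at least 2-fold lower (6.98%, against 2.79%). In emigrants numbered 1 the counts were 1 (1.16%, against 3.66%) and 6 (6.98%, against 2.56%). In emigrants numbered 2 they were 5 (5.81%, against 3.43%) and 1 (1.16%, against 2.16%). Among the 5537 genes over 6 on any array the shares at least 2-fold higher were 6.0%, 7.06% and 6.75% in the same order of pairs, and the shares at least 2-fold lower 6.01%, 4.23% and 4.55%. Each of these is a difference of 2 arrays with no test.

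By substrate class, medians lay close to 0 where the class was large. The 21 mitochondrial carriers had a median difference of 0.02, the 16 carriers of metals and heme -0.08 and the 14 amino acid carriers -0.02. The 4 carriers of nucleotide sugars had 0.46, the 5 peptide, vesicular and lysosomal carriers 0.18, the 7 carriers of organic acids and ions 0.06 and the 5 sugar carriers 0.04. Below 0 lay the 5 carriers of vitamins and choline (-0.07), the 4 of phosphate and sulfate (-0.08), the 2 of nucleosides (-0.41) and the 2 of inorganic ions (-0.62). None of the classes held a member that passed the test.

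**Figure D3:**
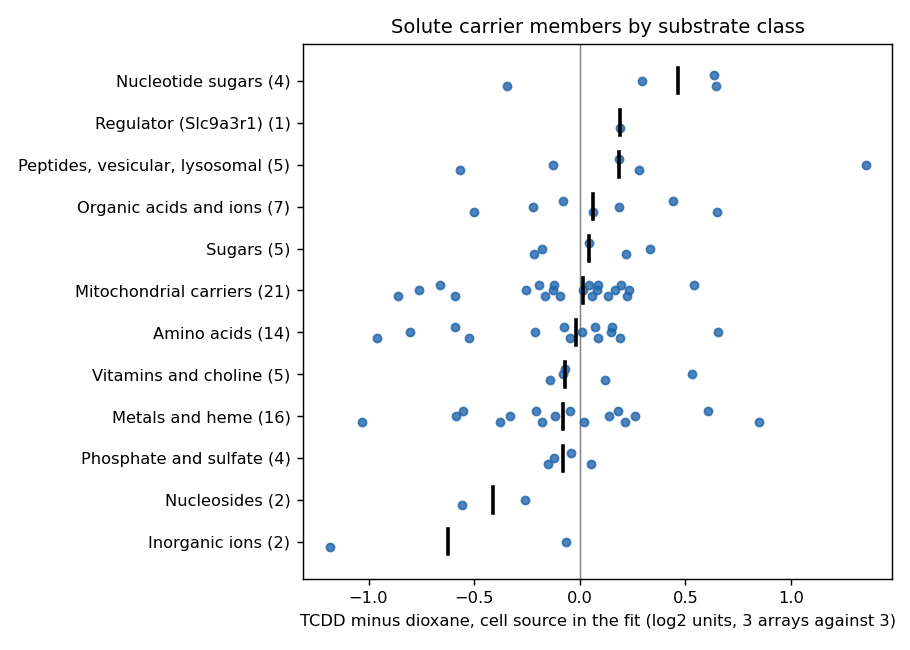
The TCDD minus dioxane difference from the fit with cell source, in log2 units (x axis, 3 arrays against 3), for each of the 86 members (points) by substrate class (y axis, number of members in brackets), with the class median as a black bar. The large classes straddle 0, and Slc15a3 lies furthest right at 1.35.

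Among the amino acid carriers, 4 of 14 were lower in all 3 pairs and 1 was higher. Over all genes 17.4% were lower and 15.4% higher in all 3 pairs, and over genes above 6 on any array 19.3% and 19.2%. Slc7a6 and Slc7a3 of the 4 lower carriers became members through dioxane arrays only. Slc7a5, the light chain that imports leucine, tryptophan and kynurenine, measured 6.79, 7.10 and 5.88 with TCDD (thymocytes, then emigrants numbered 1, then 2), against 8.86, 7.35 and 6.42 with dioxane. The dioxane thymocyte array was the highest, and the treatments overlapped across pairs. Its difference was -0.96 ± 0.52 (SE, limma adjusted p = 0.999). Slc7a6, another light chain of Slc3a2 that exchanges basic for neutral amino acids, measured 5.22, 5.15 and 5.40 with TCDD in the same order and 6.64, 5.52 and 6.02 with dioxane. Its groups did not overlap, with a difference of -0.81 ± 0.27 (limma adjusted p = 0.873), but it exceeded 6 on 2 dioxane arrays only and so entered through the group where it was high. The heavy chain Slc3a2 itself did not share this pattern, at 7.27, 7.85 and 8.87 with TCDD and 7.79, 7.61 and 8.14 with dioxane (0.15 ± 0.37). It read lower with TCDD in thymocytes and higher in both emigrant pairs. Beside these values, the T-lineage markers had median differences of -0.44, -0.09 and -0.54 in the 3 pairs, and their part in the result was not tested.

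Other amino acid carriers varied by array. Slc38a2, a sodium-coupled importer of small neutral amino acids such as glutamine and alanine, measured 8.43, 8.37 and 8.51 with TCDD in thymocytes, emigrants numbered 1 and emigrants numbered 2, and 9.10, 8.58 and 9.42 with dioxane. Every TCDD value lay under every dioxane value (-0.59 ± 0.25, limma adjusted p = 0.958). Slc7a3, a carrier of arginine and lysine, exceeded 6 on the dioxane thymocyte array alone (6.13) and read 4.73 to 5.10 on the other 5 arrays. Slc6a6, the taurine transporter, ran the other way, at 7.64, 8.48 and 9.36 with TCDD and 7.13, 8.40 and 7.98 with dioxane. The step of 1.38 in emigrants numbered 2 was its largest, and the difference was 0.66 ± 0.28 (limma adjusted p = 0.960). Its dimmer probe sets differed by 0.003 and 0.02 on average over the pairs. Slc1a5, a glutamine exchanger, read 6.89, 5.69 and 7.19 with TCDD and 7.16, 6.23 and 7.02 with dioxane, with no common sign. Slc7a11, the cystine carrier, and Slc7a8 did not exceed 6 on any array (highest values 4.37 and 4.72).

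Zinc carriers held the largest lower value among the metal carriers. Slc39a6, a zinc importer of the cell surface, measured 8.13, 7.86 and 8.78 with TCDD, in the same order of sources, against 9.99, 8.46 and 9.42 with dioxane. Each pair was lower with TCDD, and the groups overlapped across pairs (-1.03 ± 0.43, limma adjusted p = 0.953). The second probe set of the gene differed by -0.01. Slc30a5, which loads zinc into the early secretory pathway, measured 6.52, 6.80 and 6.90 with TCDD and 7.28, 7.32 and 7.38 with dioxane. Its pairs differed by -0.75, -0.52 and -0.49, an even step in each source, giving -0.59 ± 0.15 (limma adjusted p = 0.811). Slc30a4, a zinc exporter of endosomes, measured 5.39, 5.42 and 5.90 with TCDD and 6.17, 5.95 and 6.24 with dioxane (-0.55 ± 0.21), and exceeded 6 on dioxane arrays only, so it too entered through the group where it was high. Slc30a7, a Golgi zinc carrier, read higher with TCDD in all 3 pairs by 0.20 to 0.33. Of 6 Slc39 members 2 read higher in the fit and 4 lower, and the 6 Slc30 members split in the same numbers.

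Other metal carriers included members near background. Slc39a4, a zinc importer best known from the intestine, measured 6.22, 4.26 and 6.07 with TCDD and 4.96, 4.29 and 4.75 with dioxane. It exceeded 6 on 2 TCDD arrays only and so entered through the group where it was high. It read higher by 1.26 in thymocytes and 1.32 in emigrants numbered 2 and level on the arrays numbered 1, where its values lay under the highest bacterial control and cannot be told from background. Slc11a1, which pumps metal ions out of the phagosomes of macrophages, measured 4.74, 6.38 and 6.18 with TCDD and 4.50, 6.15 and 4.84 with dioxane (0.61 ± 0.37, limma adjusted p = 0.999). Its dioxane thymocyte value lay under the highest bacterial control. The step of 1.34 in emigrants numbered 2 stood beside a median macrophage marker difference of 1.74 in that pair, and of 0.11 and -0.04 in emigrants numbered 1 and thymocytes, and the part of those cells in the result was not tested. Slc11a2, an iron importer of endosomes, read 6.67 to 7.33 with TCDD and 6.68 to 6.95 with dioxane.

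**Figure D4:**
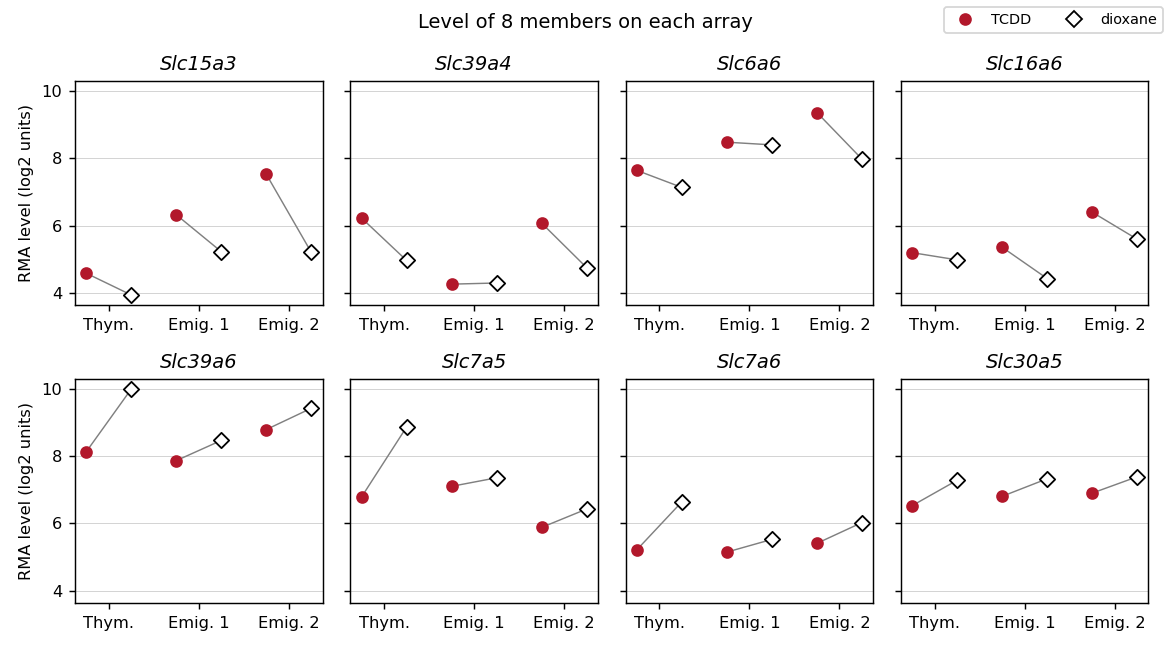
RMA level in log2 units (y axis) of 8 members on each of the 6 arrays, with TCDD (filled circles) left of dioxane (open diamonds) within thymocytes (Thym.) and emigrants numbered 1 and 2 (Emig. 1 and 2), 1 array per point and lines joining each pair. Slc30a5 steps by a similar amount in each pair, and Slc39a4 does so in 2 of 3. Slc15a3, Slc16a6 and Slc39a4 exceeded 6 on TCDD arrays only and Slc7a6 on dioxane arrays only.

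Mitochondrial carriers made up the largest class, with 3 of 21 higher and 6 lower in all 3 pairs. The shares were 15.4% higher and 17.4% lower over all genes, and 19.2% and 19.3% over genes above 6 on any array. Slc25a15, the ornithine carrier of the urea cycle and polyamine supply, measured 7.18, 6.97 and 6.92 with TCDD in thymocytes, emigrants numbered 1 and emigrants numbered 2, and 8.61, 7.16 and 7.59 with dioxane. The dioxane thymocyte array was again the highest (-0.76 ± 0.27, limma adjusted p = 0.888), and a dimmer second probe set differed by 0.06. Slc25a46, an outer-membrane protein of mitochondrial shape, measured 8.58, 8.22 and 8.99 with TCDD and 9.09, 9.49 and 9.18 with dioxane (-0.66 ± 0.25). For Slc25a51 the values were 8.86, 8.80 and 9.04 with TCDD and 9.40, 9.89 and 9.19 with dioxane (-0.59 ± 0.23). Both had non-overlapping groups and their largest step in emigrants numbered 1. Slc25a37, mitoferrin 1, which supplies iron for heme in red-cell precursors, measured 6.75, 8.15 and 6.23 with TCDD and 8.03, 9.02 and 6.66 with dioxane (-0.86 ± 0.77). The ADP/ATP exchangers showed small steps in the probe sets read, with Slc25a4 at 0.26, 0.15 and 0.27 and Slc25a5 at -0.08, 0.22 and -0.53. Other Slc25a4 probe sets, with mean levels of 9.32, 8.30 and 3.40, differed by 0.45, 0.50 and 0.02 on average over the pairs. The one read differed by 0.23. Slc25a45, a carrier with little known of its substrate, was the member whose TCDD values (8.01, 7.84 and 7.98) all lay above its dioxane values (7.58, 7.80 and 7.75), by 0.23 ± 0.16. Slc25a53 was higher with TCDD by 1.55 in thymocytes, lower in emigrants numbered 1 (-0.65) and higher by 0.71 in emigrants numbered 2.

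Golgi carriers of nucleotide sugars had median differences of 0.99, -0.18 and 0.33 in the 3 pairs. Slc35a2, the UDP-galactose carrier, measured 8.20, 7.53 and 6.90 with TCDD and 6.59, 7.58 and 6.52 with dioxane. The step was 1.61 in thymocytes and -0.06 in emigrants numbered 1, and the 3 dimmer probe sets of the gene differed by 0.09, 0.05 and 0.12 on average over the pairs. Slc35a1, which brings CMP-sialic acid into the Golgi, differed by 0.96, -0.35 and 0.28, and Slc35a5 by 1.03, -0.10 and 0.98. The dioxane thymocyte value of Slc35a5 (4.37) lay under the highest bacterial control, so its step there is not an exact one, and its 4 dimmer probe sets differed by 0.06, 0.04, -0.34 and -0.04. Slc35a4 read lower in each pair (-0.51, -0.26 and -0.26), with no overlap between the treatments, while its second probe set differed by -0.01. The TCDD effect of Slc35a2 in emigrants minus that in thymocytes was -1.45 ± 0.80, and limma called 0 of 86 members for this difference of effects (0 of all genes, 0.0%; 0 members at an unadjusted p under 0.05, against 56 genes higher, 0.452%, and 41 lower, 0.331%). In simulated data this fit recovered 0 of 100 genes changed by 4 log2 units. Its 0 calls therefore cannot decide whether the effect differs between sources.

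Lysosomal peptide carriers included the largest higher value of all members. Slc15a3, which exports histidine and short peptides from lysosomes, measured 4.58, 6.32 and 7.52 with TCDD, against 3.94, 5.22 and 5.20 with dioxane. Each pair was higher with TCDD, by 0.65, 1.10 and 2.32, and the thymocyte TCDD value lay under both dioxane emigrant values. Its difference was 1.35 ± 0.39 over both sources (limma adjusted p = 0.811). The dioxane thymocyte value lay under the highest bacterial control, and the gene exceeded 6 on TCDD arrays only, so it passed the level through the group where it was high. Its relative Slc15a4 differed by -0.11, 0.59 and 0.37. Slc15a2, a peptide importer of the cell surface, read 9.12, 6.94 and 8.38 with TCDD and 9.01, 8.48 and 8.66 with dioxane. The TCDD emigrant array numbered 1 was its low array. Macrophage markers had median differences of -0.04, 0.11 and 1.74 in the 3 pairs, stroma markers -0.05, 0.34 and 1.59 and neutrophil markers -0.00219, 0.94 and 1.02, and their part in the Slc15a3 values was not tested.

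Among carriers of organic acids 3 of 7 read higher in all 3 pairs, among those of vitamins and choline 1 of 5, and among those of inorganic ions 1 of 2 read lower. Of all genes 15.4% were higher and 17.4% lower in all 3 pairs, and of those over 6 on any array 19.2% and 19.3%. Slc22a12, 1 of the 3 organic acid carriers, differed by 0.02, 0.16 and 0.02, and its second probe set by -0.18 on average. Slc16a6, of the monocarboxylate carrier family, measured 5.20, 5.35 and 6.40 with TCDD and 4.98, 4.43 and 5.59 with dioxane (0.65 ± 0.43), and exceeded 6 on the TCDD emigrant array numbered 2 alone. Slc10a3, a member of the bile acid carrier family with no settled substrate, measured 6.87, 6.68 and 6.34 with TCDD and 6.35, 6.16 and 6.05 with dioxane (0.44 ± 0.17, limma adjusted p = 0.915). Slc23a2, which imports vitamin C, measured 6.32, 6.37 and 7.25 with TCDD and 5.84, 6.06 and 6.45 with dioxane (0.53 ± 0.27), and its second probe set differed by -0.10. Slc22a5, the carnitine importer, differed by -0.70, -0.80 and 0.01 across the pairs. Slc12a2, the sodium-potassium-chloride cotransporter that sets cell volume, measured 5.39, 7.61 and 4.97 with TCDD and 6.10, 9.40 and 6.02 with dioxane. It had the largest lower difference of the members and also the largest standard error (-1.18 ± 1.07), and its values on the arrays numbered 1 lay above the rest. The 2 dimmer probe sets of Slc12a2 differed by 0.08 each. Slc29a3, a lysosomal nucleoside carrier, differed by -0.23, -1.24 and -0.21, and its dimmer probe set by 0.24 on average. Folate carrier Slc19a1 (0.07, 0.10 and -0.40) and phosphate carrier Slc20a1 (-0.50, -0.22 and 0.34) had mixed signs.

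Emigrants were then set against thymocytes, with treatment in the model. limma called 0 of 86 members (smallest adjusted p = 0.320) and 0 of all genes (0.0%; smallest adjusted p = 0.165). At an unadjusted p under 0.05 there were 7 members higher in emigrants and 7 lower, against 397 (3.2%) and 483 (3.9%) of all genes. Of the 5537 genes over 6 on any array, 344 were higher and 393 lower at that limma p. All 4 emigrant arrays lay above both thymocyte arrays for 7 members (8.14%, against 5.46% of all genes and 8.34% of those over 6) and below them for 10 (11.6%, against 10.8% and 10.7%). Slc44a2 had the smallest p, at 8.85 and 9.25 with TCDD and 9.11 and 9.25 with dioxane in emigrants numbered 1 and 2, against 10.10 and 10.28 with TCDD and dioxane in thymocytes (-1.07 ± 0.18, limma adjusted p = 0.320). Slc38a10, an orphan of the neutral amino acid carriers, read 7.20 to 7.91 in emigrants and 8.76 and 9.01 in thymocytes (-1.26 ± 0.24). Slc9a3r1, the scaffold protein, read 7.61 to 8.50 in emigrants and 9.20 and 9.76 in thymocytes (-1.29 ± 0.32), and Slc25a53 and Slc7a5 differed by -1.19 ± 0.44 and -1.14 ± 0.56. On the higher side, Slc15a3 read 5.20 to 7.52 in emigrants and 4.58 and 3.94 in thymocytes (1.81 ± 0.41). Slc35a5 (1.33 ± 0.46), Slc11a1 (1.27 ± 0.39), Slc12a2 (1.26 ± 1.14) and Slc37a2, a sugar-phosphate carrier abundant in macrophages (1.19 ± 0.40), were the next members on that side. Thymocyte values lay under the highest bacterial control on both arrays for Slc37a2 and on the dioxane array for Slc15a3, Slc11a1 and Slc35a5, so these differences are not exact. Slc15a3, Slc35a5, Slc11a1 and Slc37a2 exceeded 6 on emigrant arrays only, so they became members through the source in which they were high. Macrophage and dendritic markers had medians of 6.63 to 9.10 on emigrant arrays and 5.01 and 5.05 on thymocyte arrays, and their part in these differences was not tested. With the emigrant arrays numbered 2 left out, a choice made after seeing the data, limma called 225 genes and 3 members, all higher in emigrants: Slc12a2 (2.76 ± 0.33, adjusted p = 0.0275), Slc38a5 (1.88 ± 0.24, adjusted p = 0.0351) and Slc11a1 (1.64 ± 0.22, adjusted p = 0.0395). Both thymocyte values of Slc38a5 lay under the highest bacterial control, and the gene exceeded 6 on the emigrant arrays numbered 1 only. Slc38a5 and Slc11a1 thus became members through the side in which they were high, so their calls are no support. With the arrays numbered 1 left out instead, Slc12a2 differed by -0.25 and Slc11a1 by 0.89. Slc38a5 then read 4.08 and 4.10 in emigrants, against 4.34 and 4.45 in thymocytes, the opposite sign, with all of these under the control.

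The 2 emigrant numbers differed more from each other than the treatments did for several members. Under both treatments, 6 members were at least 2-fold higher on the arrays numbered 1 (6.98%, against 1.78% of all genes and 3.5% of those over 6) and 1 at least 2-fold lower (1.16%, against 2.46% and 5.11%). Slc12a2 measured 7.61 and 9.40 with TCDD and dioxane on the arrays numbered 1, against 4.97 and 6.02 on those numbered 2. Slc38a5, a glutamine and histidine carrier found in red-cell precursors, read 6.44 and 6.11 against 4.08 and 4.10, and its values on the other 4 arrays lay under the highest bacterial control. Slc25a37 read 8.15 and 9.02 against 6.23 and 6.66. Slc7a7, an exchanger of basic amino acids in macrophages, read 6.14 and 7.01 against 4.96 and 4.44, and Slc39a8, a zinc and manganese importer, 6.69 and 6.24 against 4.62 and 4.81. Lower on the arrays numbered 1 were Slc16a6 (5.35 and 4.43 against 6.40 and 5.59), Slc30a6 (5.53 and 5.23 against 6.47 and 6.67), Slc1a5 (5.69 and 6.23 against 7.19 and 7.02), Slc39a4 (4.26 and 4.29 against 6.07 and 4.75) and Slc39a6 (7.86 and 8.46 against 8.78 and 9.42). Slc66a2 was the other member at least 2-fold higher under both treatments, and the value of Slc7a7 in dioxane emigrants numbered 2 lay under the highest bacterial control. Slc38a5, Slc7a7, Slc39a8 and Slc66a2 exceeded 6 on the arrays numbered 1 only, and Slc30a6 and Slc16a6 on arrays numbered 2 only. They became members through the arrays in which they were high, so the shares above are not a trait of transporters. Of 9 erythroid markers 7 were higher on the arrays numbered 1 under both treatments, such as Alas2 of heme synthesis at 7.13 and 8.86 against 4.29 and 4.36. Hba-a1, an alpha globin gene, was lower there (4.49 and 4.08 against 4.53 and 4.43), and Epb42 was higher with dioxane only. The median difference of numbers 1 and 2 was 2.39 for the erythroid list, 2.68 for neutrophil, 1.41 for macrophage and dendritic and -2.03 for T-lineage markers. Their part in the values of these members was not tested.

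**Figure D5:**
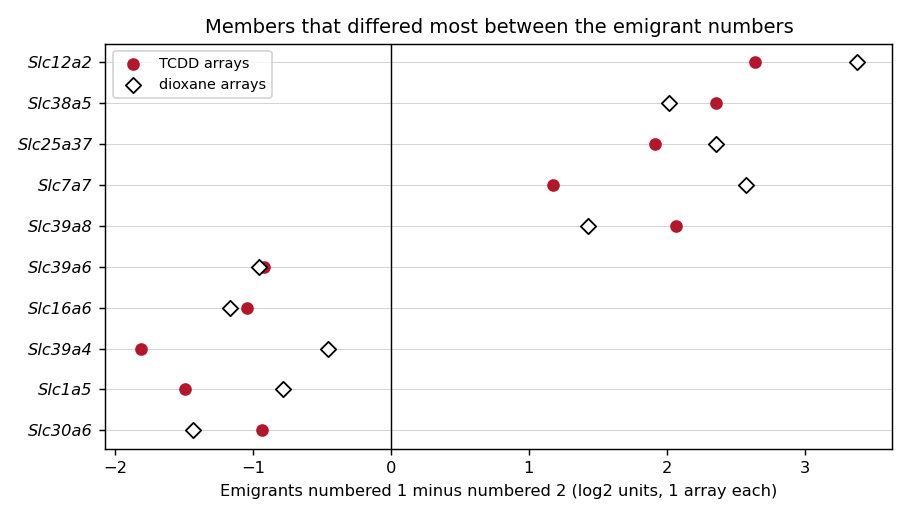
Emigrants numbered 1 minus emigrants numbered 2 in log2 units (x axis) for the 5 members furthest in each direction (y axis), with TCDD arrays as filled circles and dioxane arrays as open diamonds, 1 array per value. Slc12a2 lies at 2.64 with TCDD and 3.38 with dioxane.

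Genes of the amino acid response, which ATF4 drives together with several amino acid carriers, gave a mixed picture. Of 19 measured genes 7 read higher and 12 lower with TCDD, with a median of -0.23 over both sources and -0.49, 0.36 and -0.13 across the pairs. None passed (limma adjusted p of 0.811 or more). Asns, asparagine synthetase, measured 5.90, 7.85 and 6.05 with TCDD and 8.55, 7.96 and 6.71 with dioxane. Like Slc7a5 it was highest on the dioxane thymocyte array. Of the other transporter families over 6, 14 ABC transporters had a median of -0.02, with 6 higher and 8 lower. Abcb1a, a drug efflux pump, exceeded 6 on the TCDD thymocyte array only (6.53), and its dioxane values (3.82, 3.79 and 4.06) lay under the highest bacterial control. Abca1, the cholesterol exporter, differed by 0.39, 0.43 and 1.43 (0.75 ± 0.25). The 5 Mfsd genes had a median of 0.11, the 3 sodium pump subunits 0.03, and the 2 Slco genes and 2 aquaporins 0.50 and 0.16.

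Promoters were read from RefSeq (GRCm38.p6), which held windows of 250 bases before to 50 after a start for 61 of the 86 members. The AHR core GCGTG, searched on both strands, stood in a window of 38 of the 61 (62.3%), of 35.2% of 27025 genes with a window and of 57.5% of the 4543 genes with a window that also exceeded 6 on an array. It stood in 3 of 7 members higher in all 3 pairs and in 7 of 9 lower in all 3. The E-box CACGTG, bound by MYC and its relatives, was found in 11 of 61 (18.0%, against 8.09% of all genes and 12.6% of those over 6), and TGATGNAA, a short form of the ATF4 element, in 2 of 61 (3.28%, against 4.51% and 2.66%). A match is a description of the letters and not a binding site. The 4 windows below are those of the 2 members furthest in each direction among those with 1 sign in all 3 pairs and a GCGTG match. Capitals mark GCGTG or its reverse complement.
Slc11a1, chr1:74374953-74375252, plus strand: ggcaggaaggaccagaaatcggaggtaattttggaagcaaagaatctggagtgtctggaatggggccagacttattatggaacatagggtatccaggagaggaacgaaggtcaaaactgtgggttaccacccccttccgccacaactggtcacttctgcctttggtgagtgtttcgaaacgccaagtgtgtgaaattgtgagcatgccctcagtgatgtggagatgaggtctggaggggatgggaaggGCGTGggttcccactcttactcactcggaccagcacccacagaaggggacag
Slc23a2, chr2:132145271-132145570, minus strand: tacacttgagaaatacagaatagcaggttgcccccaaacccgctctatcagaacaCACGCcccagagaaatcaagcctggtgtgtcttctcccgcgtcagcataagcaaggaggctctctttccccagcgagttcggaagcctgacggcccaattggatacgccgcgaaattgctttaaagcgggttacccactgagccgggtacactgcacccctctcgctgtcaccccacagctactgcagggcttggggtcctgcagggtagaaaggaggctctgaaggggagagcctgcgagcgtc
Slc7a6, chr8:106168604-106168903, plus strand: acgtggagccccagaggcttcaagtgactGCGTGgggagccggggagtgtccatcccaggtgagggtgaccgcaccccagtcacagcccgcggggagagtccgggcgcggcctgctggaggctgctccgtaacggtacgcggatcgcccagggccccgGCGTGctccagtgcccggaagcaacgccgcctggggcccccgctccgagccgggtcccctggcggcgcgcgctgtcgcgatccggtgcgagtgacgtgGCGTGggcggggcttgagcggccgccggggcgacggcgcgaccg
Slc25a15, chr8:22398572-22398871, minus strand: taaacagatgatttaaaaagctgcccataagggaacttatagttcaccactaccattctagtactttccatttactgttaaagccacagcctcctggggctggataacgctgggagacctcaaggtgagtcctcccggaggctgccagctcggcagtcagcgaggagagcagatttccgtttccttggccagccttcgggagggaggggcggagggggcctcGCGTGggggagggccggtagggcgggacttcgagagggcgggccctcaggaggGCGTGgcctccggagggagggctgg
Slc7a6 has 3 such matches in its window and Slc25a15 has 2. Slc11a1 and Slc23a2 have 1 each.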

How the data were processed

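The authors deposited 1 log2 value per probe set and array, made with RMA per the submitters' processing notes and with the Bioconductor affy package per the series design text. RMA corrects background, normalises across arrays and summarises probes, gives no detection call and understates fold changes of dim genes. Their versions were not given in the sources used here. Values were used as deposited. Of 22690 probe sets, 64 were controls, 691 named more than 1 gene and 1555 named none, and all of these were left out. The other 20380 gave 12393 genes, each by its brightest probe set. Symbols are those of GEO's platform annotation. Of the members, 43 had more than 1 probe set, and in 25 of them a second one had the opposite sign.

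Each comparison used lmFit and eBayes of limma 3.58.1 (R 4.3.3), and p-values were adjusted over all genes by the Benjamini-Hochberg method. Residual degrees of freedom were 3, 2, 3 and 2 for TCDD over both sources, TCDD in emigrants, emigrants against thymocytes and the difference of TCDD effects. The last fit assumes that lone thymocyte arrays vary like emigrant arrays. Fits were tested on simulated data of 12393 genes with 200 changed. Of 100 genes changed by 4 log2 units 93, 80, 87 and 0 were recovered, and of 100 changed by 2 units 73, 42, 68 and 0. The simulated noise was independent between arrays, while the deviations of the emigrant numbers correlated at 0.56 over genes and 0.72 over the members. These rates need not hold for the deposited data, where TCDD differences over both sources ran from -3.16 to 3.31 with 0 genes called. The number of arrays limits the precision. Named genes were those with 1 sign in all 3 pairs (up to 12 each way by size), the 3 brightest per class, the 5 furthest each way between sources and between emigrant numbers, those at the level of 6, and Slc3a2 with its partners. A few others, such as those at least 2-fold different in a pair, were chosen after their values were seen. Substrate classes follow family numbers. Members and lists were chosen with earlier results of these data known. Alternatives were cyclic loess, median centring, a filter on dim genes, an intensity trend, the mean of probe sets, other levels, a block by array number, no covariate and the omission of arrays.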

Additional observations from a re-analysis of the deposited data

How the results depend on the processing

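No member was called in any of the 4 comparisons under the alternatives listed above, apart from 1 added after seeing the data, and limma called 0 of 12393 genes in each as reported, with 333 genes higher and 326 lower at an unadjusted p under 0.05 for TCDD over both sources. The exception among all genes was emigrants against thymocytes without the dioxane emigrant array numbered 2, with 0 to 7 genes called over the single omissions. Leaving out both emigrant arrays numbered 2 (added after seeing the data) gave 225 genes and 3 members there. The member median over single omissions ran from -0.0962 to 0.0247 (TCDD over both sources), -0.155 to 0.0582 (TCDD in emigrants), -0.0708 to 0.0366 (emigrants against thymocytes) and -0.0791 to 0.150 (difference of effects). Without both arrays numbered 1 (added) it was 0.0259 for TCDD over both sources and -0.129 for emigrants against thymocytes, where Slc12a2 turned to -0.249. Members higher in all 3 pairs numbered 7 with a mean above 6, 6 over 7 on any array and 32 of all measured, and those lower 12 over 7 on any array and 41 of all measured. Thymocytes and emigrants numbered 2 alone gave 25 higher (29.1%, against 28.8% of all genes) and 27 lower (31.4%, against 32.0%). Slc22a12 turned to -0.0593 with the mean of probe sets. Over single omissions Slc22a12 ran from -0.0118 (without the dioxane emigrant array numbered 1) to 0.125, and Slc25a4 from -0.0398 (without the TCDD emigrant array numbered 2) to 0.502, also turning (-0.00613) without the dioxane emigrant array numbered 1. In the other 467 values of named genes, sign and call were as reported. The labels do not say that array numbers mark a shared culture, and the check had 2 pairs. The deviations of these pairs correlated at 0.56 over genes and 0.72 over the members. With the replicate block 0 genes and 0 members were called for TCDD (smallest adjusted p over members 0.284, and 0.768 in emigrants), with the same medians (-0.04 and -0.04).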
